A study of Sus scrofa with 5 samples.

Results

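The nuclei described here came from dorsal root ganglion neurons that carried transcripts of TRPM8, the ion channel that opens on cooling and on menthol. They were chosen by a rule on TRPM8 itself: a nucleus with at least 2000 unique molecular identifiers (UMIs, each a counted RNA molecule) was a member if it held at least 2 TRPM8 UMIs and at least 3 TRPM8 UMIs per 10000 of its UMIs. The rule found 161 members among 1665 well covered nuclei, or 9.67% (95% Clopper-Pearson interval 8.29 to 11.2), of 2189 nuclei in the table. The remaining 1504 well covered nuclei are called the other nuclei. Because the rule read TRPM8, the TRPM8 level of the members describes how they were chosen and is not a finding.

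Nuclear RNA was counted nucleus by nucleus in 80 mg of ganglion tissue per sample, taken at thoracic and lumbar levels from 5 male Landrace pigs. The pigs formed 1 group with no treatment named, and the labels give no age. Isolation protocols differed in detergent and in how neuronal nuclei were enriched, in part with an antibody to the neuronal protein NeuN. Barcode endings separated 6 libraries, and no barcode ending was tied to a pig or a protocol, so the table was 1 pooled sample. No test was run for that reason, nuclei were not treated as replicates, and each 95% interval below reflects counting error and says nothing of how pigs vary.

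Sensory neurons that express TRPM8 signal innocuous cool and, in part, painful cold from skin and mucosa to the spinal cord. The channel needs the membrane lipid phosphatidylinositol bisphosphate to open, and phospholipase C, which cleaves that lipid, and protein kinase C lower its activity. Its nerve endings also depend on potassium channels that set how much cooling is needed before a neuron fires.

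Members came from every library but unevenly. Library 1 gave 38 of 412 well covered nuclei, library 3 gave 42 of 634, library 5 gave 38 of 295 and library 6 gave 38 of 258. Library 4 gave 4 of 61 and library 2 gave 1 of 5, too few for a value of their own. The members' share was lowest in library 3 (6.62%, interval 4.82 to 8.85) and highest among these 4 in library 6 (14.7%, interval 10.6 to 19.7). Over all libraries the median depth was 6596 UMIs in members and 6172 in the other nuclei, but within libraries it differed in both directions. It was 4707.5 against 6435.5 UMIs in library 1, 4487 against 4915.5 in library 3, 7076 against 6277 in library 5 and 16986 against 12911.5 in library 6. After each nucleus was thinned to 2000 UMIs, the median number of genes was 1280 against 1263. The median share of mitochondrial UMIs was close on both sides within libraries, 4.23% against 4.48% in library 1 and 21.7% against 22.7% in library 3.

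The members together held 2015744 UMIs. A single nucleus of library 6 held 338372 of them (16.8%), and the next, the only member of library 2, held 168280. That deepest member carried 194 TRPM8 UMIs and also 269 of the 307 IL31RA UMIs and 86 of the 137 OSMR UMIs found in all members. IL31RA and OSMR encode the 2 receptor chains for the itch cytokine IL-31. Of the 161 members, 33 also met the same rule for IL31RA (2 nuclei), ADCYAP1 (9), GFRA2 (11) or NTRK3 (11), genes that mark other sensory neurons. They made up 20.5% of the members, and 44.5% of the other nuclei met any of these 4 rules. For each of the 4 genes the share was lower in the members than in the other nuclei. Whether the 33 members were mixtures of nuclei was not tested.

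TRPM8 itself ranged from 3.03 to 33.7 UMIs per 10000 over the members, with a median of 9.01. Library medians were 10.2, 10.1, 7.53 and 6.45 for libraries 1, 3, 5 and 6. Members held 1792 of the 2171 TRPM8 UMIs of the table (82.5%). Just inside the threshold were 42 members at 3 to 5 per 10000, with RORA at 1630 and COLQ at 56.3 CPM, the UMIs of a gene per 1000000 UMIs of a group. Just outside lay 43 nuclei with at least 2 TRPM8 UMIs but under 3 per 10000, whose median depth was 20237 UMIs and which held RORA at 529 and COLQ at 8.78 CPM. Another 25 nuclei missed the rule by holding 1 TRPM8 UMI at 3 or more per 10000. They were shallow (median 2470 UMIs), and their RORA (1560 CPM) and COLQ (76.4 CPM, 5 UMIs) were closer to the members than to the other nuclei. Below the depth limit, 13 nuclei met the TRPM8 rule, and they held RORA at 2751 and HPSE2 at 561 CPM.

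**Figure D1:**
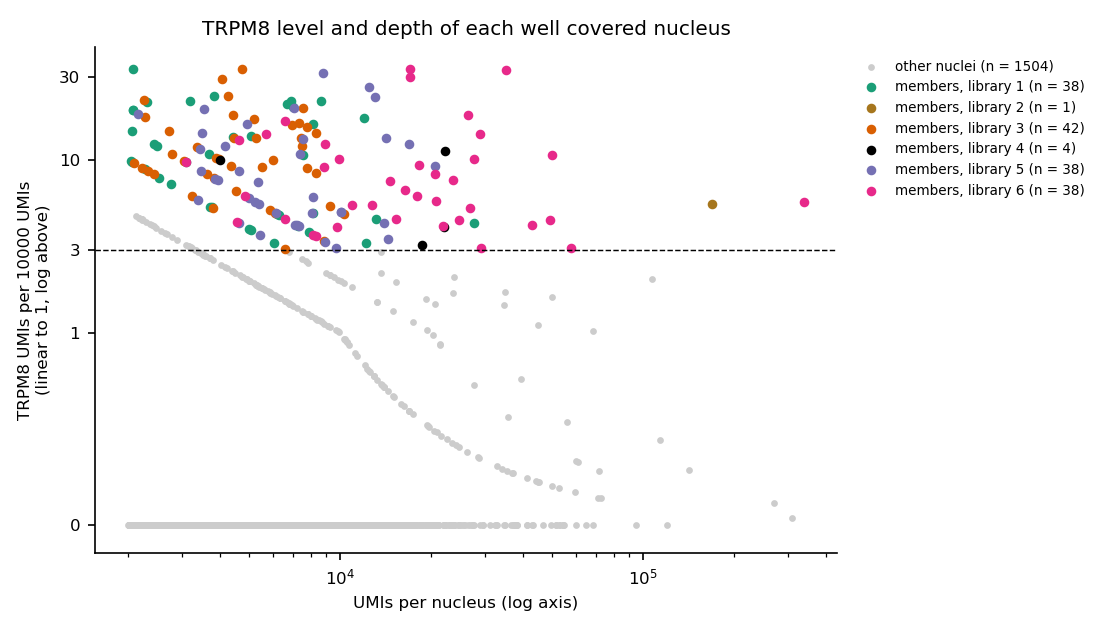
Each point is 1 well covered nucleus, with its UMIs on a log axis against its TRPM8 UMIs per 10000 (linear to 1, log above); coloured points are the 161 members by library, grey points the 1504 other nuclei, and the dashed line marks 3 per 10000. Members span 3.03 to 33.7 per 10000, and the deepest, at 338372 UMIs, stands apart on the right.

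Of the 6 genes listed with TRPM8 as markers of these neurons, 5 were higher in the members, and UNC5D was not. The other nuclei were weighted to the members' library make-up. A gene was called higher or lower when the ratio was at least 2-fold, its interval excluded 1, and every library with at least 10 nuclei on each side and 10 UMIs, in at least 2 libraries, went the same way. Over 13205 genes with at least 50 UMIs, 219 were called higher (1.66%) and 242 lower (1.83%), with a median log2 ratio of -0.05.

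RORA, a nuclear receptor that acts as a transcription factor, reached 1931, 3503, 3184 and 2436 CPM in the members of libraries 1, 3, 5 and 6, against 296, 370, 378 and 467 CPM in the other nuclei. None of these 4 member levels overlapped those of the other nuclei. The share of all tested genes without such overlap is not given here, for RORA or for the genes below. Over all libraries RORA was at 2658 against 388 CPM, a ratio of 6.85 (interval 6.57 to 7.15). COLQ, the collagen tail that anchors acetylcholinesterase, was at 77.4, 134, 199 and 159 CPM in the members and at 6.495, 3.39, 12.8 and 9.93 CPM in the other nuclei of the same libraries. Its ratio of 16.6 (interval 12.95 to 21.2) was the highest of all genes tested. IGSF21, a synaptic adhesion protein, stood at 123, 97.0, 92.7 and 86.4 CPM against 6.84, 6.79, 14.3 and 7.84 CPM, a ratio of 10.7 (interval 8.35 to 13.8).

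HPSE2, a heparanase relative that binds heparan sulfate, was at 557 against 130 CPM (4.30-fold, interval 3.96 to 4.66). FOXP2, a forkhead transcription factor, was at 250 against 63.3 CPM (3.95-fold, interval 3.51 to 4.44), and its members' level in library 3 (522 CPM) was well above those of libraries 1, 5 and 6 (214, 172 and 193 CPM). UNC5D, a netrin receptor, went the other way: 72.9 CPM in members and 110 CPM in the other nuclei, lower in libraries 1, 5 and 6 and slightly higher in library 3 (171 against 155 CPM). It was not called in either direction, so it did not set the members apart from the other nuclei as a whole. Against the GFRA2 class described below UNC5D was called higher, but it was not called against the IL31RA or ADCYAP1 class.

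After thinning, a RORA UMI was seen in 75.8% of members and 40.1% of the other nuclei, and a COLQ UMI in 16.1% against 2.0%. In the NTRK3 class, 123 nuclei chosen by the same rule on the neurotrophin-3 receptor of large-fibre neurons (median 6195 UMIs), a RORA UMI was seen in 35.8% and a COLQ UMI in 2.44%. Without thinning, 79 members (49.1%) and 153 other nuclei (10.2%) held at least 4 of the 6 other markers, and 11 members held none. Markers of non-neuronal cells were at like levels on both sides: satellite glia 882 against 838 CPM, Schwann cells 780 against 939, immune cells 245 against 245, endothelial cells 98.2 against 85.1 and fibroblasts 180 against 164 CPM, with other nuclei not weighted by library here. Satellite glia markers ranged from 217 to 2573 CPM over the members of single libraries and from 322 to 2233 CPM over the other nuclei, and their part in the results was not tested.

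**Figure D2:**
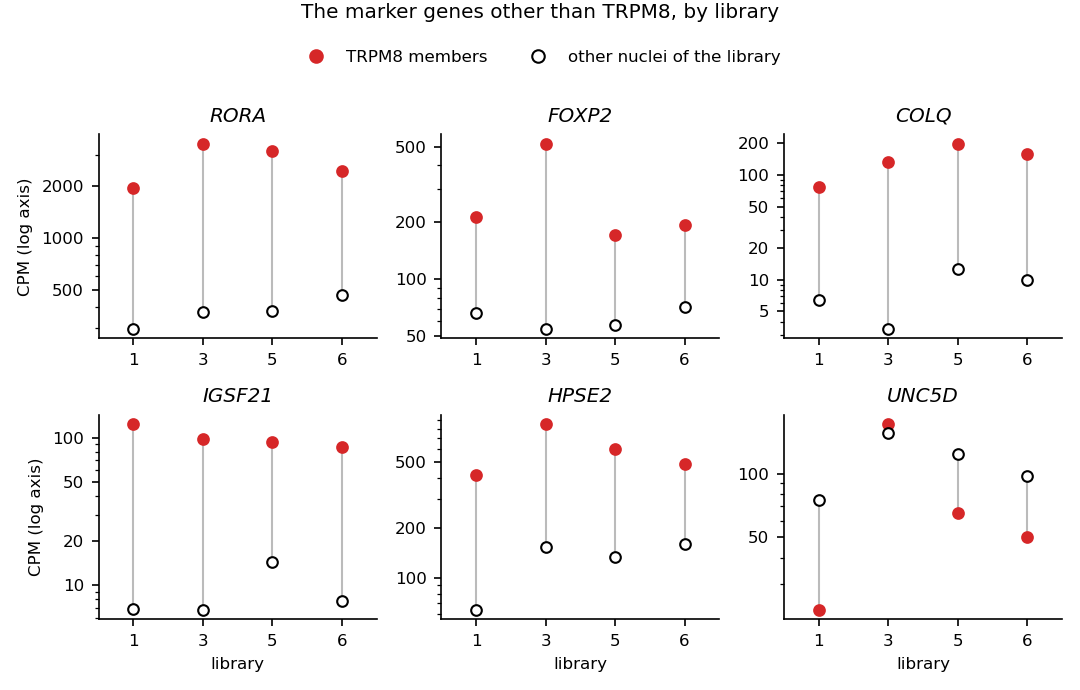
CPM on log axes of the 6 markers other than TRPM8 in libraries 1, 3, 5 and 6, for members (filled) and the other nuclei of the same library (open). RORA, FOXP2, COLQ, IGSF21 and HPSE2 were higher in the members of each library, whereas UNC5D was higher in library 3 only.

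Among all genes with a symbol, the next largest ratios were those of GRID2IP, which binds a glutamate receptor subunit (70.9 against 6.83 CPM, 10.4-fold, interval 7.69 to 14.03), and IQCJ (122 against 13.4 CPM, 9.05-fold). IQCJ and SCHIP1 are neighbouring genes from which a joint transcript is also made, so reads may be shared between them. SCHIP1, a protein of the axon initial segment and nodes of Ranvier, was at 1206 against 211 CPM, a ratio of 5.71 (interval 5.39 to 6.06). In libraries 1, 3, 5 and 6 its members were at 1298, 1631, 1158 and 1183 CPM and its other nuclei at 175, 256, 196 and 233 CPM, a gap in every library. Other ratios were 6.26 for DISP3, 6.09 for SLC29A4 (a monoamine transporter), 5.80 for SELENOM, 5.42 for UTS2B (a urotensin-like peptide, 22 UMIs), 4.99 for SIDT1 and 4.38 for IPCEF1. UTS2B was not called without library 3, 5 or 6, at ratios of 5.41, 6.09 and 3.35. Without library 6 the ratio was 17.5 for GRID2IP and 3.45 for SLC29A4.

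At the low end, LHFPL3 was at 69.5 CPM in members and 480 CPM in the other nuclei (6.91-fold lower, interval 5.84 to 8.18). LPAR3, a lysophosphatidic acid receptor, was at 6.45 against 54.1 CPM (8.39-fold lower), and LYPD1 at 3.97 against 30.3 CPM (7.62-fold lower). CACNA1I, a low-threshold calcium channel, was at 2.48 against 19.5 CPM on 5 member UMIs, and OPRK1, the kappa opioid receptor, at 3.47 against 24.6 CPM on 7. The nominally largest ratios rested on 1 or 2 member UMIs. PSPH was 15.7-fold lower (interval 2.18 to 113), SKOR2 12.4-fold (interval 3.08 to 50.2) and BEGAIN 12.1-fold (interval 1.67 to 87.6). C18orf63, SLC6A7, OVOL2 and HGD had 1 member UMI each and ratios of 9.04, 8.95, 8.92 and 7.54 to lower, with intervals from 1.24 to 65.8, 1.23 to 65.2, 1.23 to 64.8 and 1.03 to 55.01. Without library 6 none of these 7 genes was called, and SLC6A7, C18orf63 and HGD turned round; OPRK1 lost its call there too, at 2.35-fold lower. Without the deepest member C18orf63, SLC6A7, OVOL2 and HGD were not called either, at 2.34-fold, 2.34-fold, 7.24-fold and 6.04-fold lower. LYPD1 was 21.2-fold lower without library 5 and 3.87-fold without library 6, CACNA1I 15.3-fold and 4.96-fold, and LPAR3 12.7-fold lower without library 5.

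**Figure D3:**
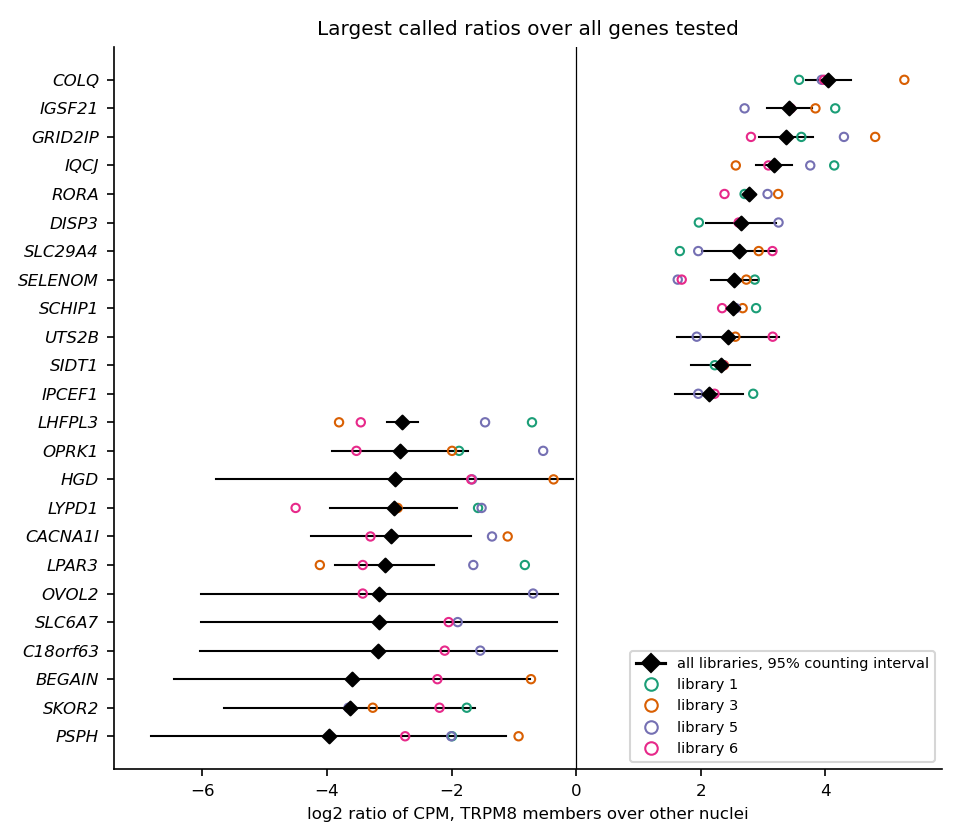
Log2 ratios of CPM, members over other nuclei, for the 12 largest called ratios in each direction; diamonds are all libraries with 95% counting intervals and circles are libraries 1, 3, 5 and 6. COLQ lies farthest right at a ratio of 16.6, and the long bars at the bottom belong to genes with 1 or 2 member UMIs.

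Of the temperature and chemical transduction channels, 29 were tested besides TRPM8, 2 were called higher and 5 lower, with a median log2 ratio of 0.00. TRPC5, a channel that cold can open, was at 53.1 against 23.4 CPM (2.27-fold, interval 1.80 to 2.85), and the acid-sensing channel ASIC1 at 79.4 against 37.9 CPM (2.10-fold). TRPC5 lost its call without library 6 (1.63-fold), and ASIC1 without library 3 (1.96-fold), library 5 (1.97-fold) or the deepest member (1.92-fold). TRPV1, the heat and capsaicin receptor, was at 12.9 against 33.8 CPM (2.62-fold lower, interval 1.76 to 3.91). Of its 26 member UMIs, 16 lay in the deepest member, and the level without that nucleus was 5.96 CPM (5.34-fold lower).

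PIEZO2, the touch channel, was at 375 against 851 CPM (2.27-fold lower), a call that was lost without the deepest member (1.95-fold lower). ANO3, an anoctamin, was at 91.3 against 256 CPM (2.81-fold lower), and P2RX5 was also called lower. TRPM3, another heat-activated TRP channel, was at 1461 against 842 CPM, a ratio of 1.73 (interval 1.66 to 1.81) that missed the 2-fold limit, with members above the other nuclei in each of libraries 1, 3, 5 and 6. TRPA1, the irritant receptor, was at 83.3 against 119 CPM and was not called. GRIK2, a glutamate receptor also described as a cold sensor, was at 900.4 against 548 CPM (1.64-fold) and was not called.

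Of 48 genes that act on TRPM8 or its lipid, 4 were higher and 2 lower (median log2 ratio -0.09). PLCD4, a delta-type phospholipase C, was at 189 against 44.6 CPM, a ratio of 4.23 (interval 3.68 to 4.85), with 196, 111, 316 and 182 CPM in the members of libraries 1, 3, 5 and 6 and 34.5, 29.7, 76.98 and 40.3 CPM in the other nuclei. Members and other nuclei did not overlap between libraries. PRKCB, a classical protein kinase C, was at 368 against 108 CPM (3.40-fold, interval 3.09 to 3.73). CAMK2A (3.16-fold, 27 UMIs) and PLCH2 (2.99-fold, 24 UMIs) were also higher. PLCB3, the phospholipase that follows G protein-coupled itch receptors, was at 21.8 against 64.7 CPM (2.96-fold lower), and 22 of its 44 member UMIs lay in the deepest member. Without that nucleus it was at 13.1 CPM and 5.04-fold lower. RET, the glial cell line-derived neurotrophic factor receptor, was at 245 against 546 CPM (2.23-fold lower), a call lost without library 2 (1.92-fold lower). The TRPM8 partners PIRT (127 against 129 CPM) and TCAF1 (179 against 190.4 CPM) were not called.

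Among potassium and HCN channels, 65 were tested, 8 were higher and 5 lower, with a median log2 ratio of -0.06. KCNK2, a leak channel that responds to temperature and stretch, was at 181 against 52.2 CPM, a ratio of 3.47 (interval 3.04 to 3.96). KCNH7, of the ERG family, was at 1649, 2019, 2525 and 1674 CPM in the members of libraries 1, 3, 5 and 6 and at 392, 626, 592 and 539 CPM in the other nuclei, a ratio of 3.45 (interval 3.31 to 3.60) with no overlap. KCNH5 (3.26-fold) and KCNN2, a small-conductance calcium-activated channel (2.43-fold), followed. KCNK3, KCNQ5, KCNK4 and KCNG3 were also called higher. KCNG4 (4.88-fold), KCNA3 (4.31-fold) and KCNK1 (3.39-fold) were lower on 8, 6 and 18 member UMIs (without library 6, 3.14-fold for KCNG4 and 7.84-fold for KCNK1), and DPP10 and KCNIP1 completed the lower calls.

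Of 16 sodium channel genes, 2 were higher and none was lower (median log2 ratio 0.01). FGF14, an intracellular modulator of these channels, was at 2440 against 1053 CPM (2.32-fold, and 3.57-fold without library 6). SCN10A, the nociceptor channel Nav1.8, was at 114, 111, 357 and 702 CPM in the members of libraries 1, 3, 5 and 6 and at 265, 387, 851 and 819 CPM in the other nuclei. The members were lower in each of these libraries, and by the least in library 6, which held 740 of the 903 member UMIs. Over all libraries SCN10A was at 448 against 647 CPM and was not called. The members' level was 328 CPM without the deepest member and 169 CPM without library 6. Of 29 calcium channel and pump genes, 5 were higher and 1 lower (median log2 ratio 0.13). CACNB2, an auxiliary subunit, was at 1498, 2417, 3243 and 1979 CPM in the members of libraries 1, 3, 5 and 6 and at 297, 572, 626 and 656 CPM in the other nuclei, a ratio of 3.96 (interval 3.80 to 4.12) with no overlap. CACNA1D was 2.78-fold higher, CACNA1G 2.53-fold and the pump ATP2B3 2.11-fold (15 UMIs); CACNB4 was the fifth. CACNA1G was not called without library 4 (1.83-fold), 5 (2.15-fold) or 6 (6.05-fold), nor ATP2B3 without library 3 (2.13-fold), library 6 (1.75-fold) or the deepest member (1.95-fold).

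Transcription factors gave 6 higher and 5 lower calls of 85 (median log2 ratio -0.03). RORA and FOXP2 led, followed by NFIX (58.5 against 18.8 CPM, 3.11-fold) and PRDM8 (2.54-fold, 23 UMIs), and RUNX1T1 was called higher too. ZFHX3 was at 79.9 against 228 CPM (2.86-fold lower), MEIS1 2.74-fold and KLF5 2.73-fold lower, with ETV5 and SATB1. Of the 41 KLF5 UMIs in members, 24 lay in the deepest member, and the level without it was 10.1 CPM against 20.3 CPM with it. KLF5 was 5.90-fold lower without the deepest member and was not called without library 2 (1.94-fold lower).

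Neuropeptide and granule genes gave 1 higher and 1 lower call of 22 (median log2 ratio -0.30). CARTPT was at 22.8 against 6.07 CPM (3.76-fold, interval 2.68 to 5.27, 46 UMIs). Its log2 ratio of 1.91 ranged from 0.56 to 2.75 across the alternatives run. Somatostatin (SST) was at 5.46 against 25.03 CPM (4.59-fold lower, 11 UMIs). SST was not called without library 1 (7.69-fold) or library 3 (4.44-fold) and was 2.22-fold lower without library 2. PENK, the enkephalin precursor, had 0 UMIs in the members, which allows up to 1.49 CPM. TAC1, the substance P precursor, was at 1389, 716, 192 and 269 CPM in the members of libraries 1, 3, 5 and 6 and at 3608, 1993, 407 and 353 CPM in the other nuclei, lower in each. Over all libraries TAC1 was at 654 against 1127 CPM and was not called. The single member of library 2 held 518 of its 1319 member UMIs, and the members' level was 434 CPM without it. Of G protein-coupled receptors, 3 were higher and 4 lower of 59 (median log2 ratio 0.07): the glutamate receptors GRM3 (3.41-fold) and GRM4 (2.17-fold) and the endothelin receptor EDNRA (2.17-fold) were higher, and LPAR3, OPRK1, P2RY1 (3.80-fold, 5 UMIs) and TACR1 were lower. GRM4 was not called without library 6 (1.99-fold), nor EDNRA without library 5 (1.87-fold), and GRM3 was 5.64-fold higher without library 6.

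Growth factor and cytokine receptors gave 3 calls in each direction of 46 (median log2 ratio -0.21). IL1R1, the interleukin-1 receptor, was at 33.2 against 8.65 CPM (3.84-fold), KIT, the stem cell factor receptor, at 169 against 74.0 CPM (2.28-fold), and ROR2 at 121 against 58.2 CPM (2.08-fold). MET, RET and GFRA1 were 2.85-fold, 2.23-fold and 2.17-fold lower. Calls were lost without library 6 for KIT (1.60-fold), without library 5 for GFRA1 (1.93-fold) and without either of these for ROR2 (1.98-fold without library 5 and 1.75-fold without library 6). MET was 6.91-fold and GFRA1 3.36-fold lower without library 6. Genes of transmitter release and reception gave 3 higher and 5 lower calls of 60 (median log2 ratio 0.02). GABRG3 (2.58-fold), the release factor UNC13C (2.32-fold) and the glutamate receptor GRIA3 (2.11-fold) were higher, whereas GABRA5 (3.21-fold) and the vesicular glutamate transporters SLC17A8 (2.90-fold) and SLC17A7 (2.60-fold) were lower, with CHRNA3 and GRIA4. SLC17A8 was not called without library 2 (1.99-fold lower), and GABRA5 was 7.09-fold lower without the deepest member.

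Adhesion, guidance and matrix genes gave 18 higher and 8 lower calls of 127 (14.2% and 6.30%, median log2 ratio -0.07). COLQ, IGSF21 and HPSE2 led, and CDH13, a cadherin held by a lipid anchor, followed at 407 against 98.3 CPM (4.14-fold, interval 3.78 to 4.53). Without library 6 the ratio was 2.28 for CDH13 and 6.54 for HPSE2. HS3ST2, a heparan sulfate sulfotransferase, was at 99.7 against 330.2 CPM (3.31-fold lower, interval 2.87 to 3.82), and 114 of its 201 member UMIs lay in the deepest member. Without that nucleus it was at 51.9 CPM and 6.33-fold lower. CNTN6 (3.26-fold) and SEMA3A (3.06-fold) were also lower. Of 26 axon, cytoskeleton and calcium-binding genes, 0 were higher and 1 was lower, PVALB, the parvalbumin of large-fibre neurons (4.00-fold, median log2 ratio -0.16). PVALB was 2.49-fold lower without library 1 and 6.93-fold without library 6. The 13 mitochondrially encoded genes gave no call (median log2 ratio -0.07).

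The members were next set beside 3 classes of C-fibre neurons, each chosen by the TRPM8 rule applied to another gene: IL31RA (236 nuclei, itch-related), ADCYAP1 (153, peptidergic) and GFRA2 (125, nonpeptidergic). Nuclei that met more than 1 of these rules were left out of the classes. The members are shared by all 3 comparisons, and TRPM8, IL31RA, ADCYAP1 and GFRA2 are not results in them.

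Against the IL31RA class, 449 of 9527 genes were higher in members (4.71%) and 242 lower (2.54%). Without the deepest member the lower calls numbered 376. PLCD4 was at 189 against 7.14 CPM (26.5-fold, interval 16.4 to 42.8), COLQ at 141 against 4.52 CPM (31.1-fold) and IGSF21 at 85.7 against 5.27 CPM (16.3-fold). ONECUT2, a transcription factor, was 7.50-fold and EPHB1, a guidance receptor, 7.36-fold higher. SST was 9.59-fold, KCNA3 6.38-fold, PLCB3 6.21-fold (22.1 against 137 CPM), EPHB6 6.03-fold and KLF5 4.99-fold lower. Calls were lost without library 1 or 6 for ONECUT2 (7.25-fold and 6.15-fold) and KCNA3 (4.77-fold and 9.11-fold), and without library 1 or 3 for SST (16.8-fold and 9.22-fold). SST was 4.195-fold lower without library 2, where the members and the class had 1 nucleus each. EPHB6 was not called without library 2, 5 or 6 (6.72-fold, 4.96-fold and 10.5-fold). Without the deepest member PLCB3 was 11.0-fold and KLF5 10.9-fold lower, and without library 5 PLCD4 was 52.6-fold higher. By list, 30 of 107 adhesion genes and 15 of 66 transcription factors were higher, and 6 of 20 neuropeptide genes (SST, NPPB, NMB, SCG2, TAC1 and PCSK2) were lower with none higher.

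Against the ADCYAP1 class, 431 of 8084 genes were higher (5.33%) and 194 lower (2.4%). IGSF21 was at 97.4 against 1.43 CPM (68.3-fold, interval 28.1 to 166). GRM4 was 23.1-fold higher (8.50-fold without library 6), and IGSF21 was 24.3-fold higher without library 1. AFF2 was 20.4-fold higher, but its log2 ratio fell from 4.35 to 0.52 after thinning, when an AFF2 UMI was seen in 1.24% of members and 1.31% of the class. TAC1 was at 434 against 2259 CPM (5.21-fold lower, interval 4.79 to 5.67) and GAL, the galanin gene, at 16.8 against 146 CPM (8.70-fold lower). OPRK1 (9.69-fold) and the prostaglandin receptor PTGER4 (5.91-fold) were lower too. The class had no nucleus in library 2, so that library's member did not enter. AFF2 was not called without library 1, 5 or 6 (94.5-fold, 17.3-fold and 6.38-fold). GAL lost its call without library 1 (6.83-fold) or 3 (7.70-fold), and OPRK1 without any of libraries 1, 3, 4, 5 and 6 (8.29-fold to 12.9-fold lower). Without the deepest member PTGER4 was 13.4-fold and GAL 15.3-fold lower.

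Against the GFRA2 class, 569 of 8925 genes were higher (6.38%) and 382 lower (4.28%). RORA was at 2658 against 172 CPM (15.5-fold, interval 13.5 to 17.8), COLQ 24.98-fold and IGSF21 97.2-fold higher, the last with an interval of 31.1 to 304. IL1R1 (14.4-fold) and CDH4 (14.03-fold) were higher as well. LPAR3 was at 6.45 against 216 CPM (33.4-fold lower, interval 19.2 to 58.3), and CACNA1I (32.6-fold), the potassium channel KCNG4, the transcription factor POU4F2 (13.1-fold) and SEMA3A (9.62-fold) were lower. IL1R1 and CACNA1I were not called without library 5 (20.9-fold and 68.4-fold) or library 6 (6.75-fold and 15.2-fold). Without library 5 IGSF21 was 39.7-fold higher, and LPAR3 53.9-fold and SEMA3A 15.3-fold lower. COLQ was 39.0-fold higher without library 6.

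**Figure D4:**
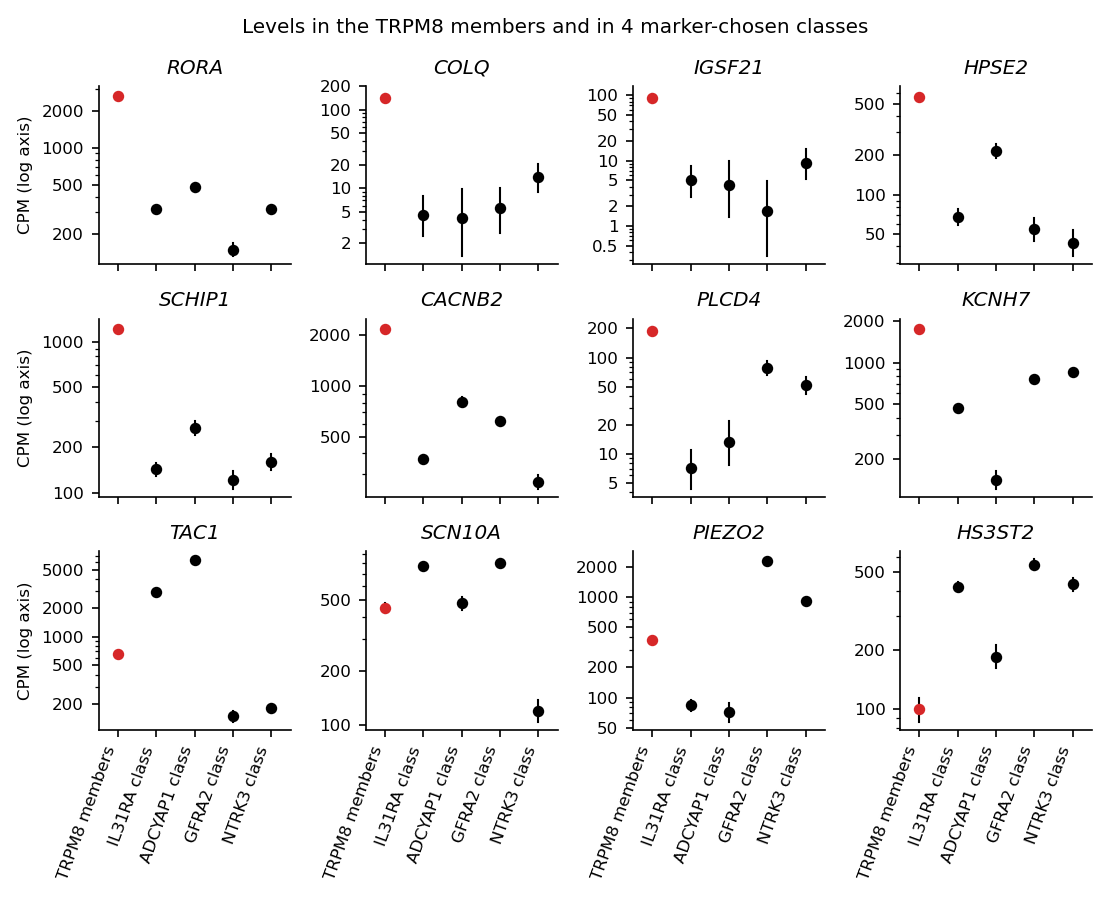
CPM on log axes, pooled over libraries, of 12 genes in the TRPM8 members (red) and in classes chosen on IL31RA, ADCYAP1, GFRA2 and NTRK3 (black), with 95% Poisson intervals for counting error. RORA, COLQ, IGSF21, HPSE2, SCHIP1, CACNB2, PLCD4 and KCNH7 were highest in the members; TAC1 was highest in the ADCYAP1 class and PIEZO2 in the GFRA2 class.

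The members were not uniform, and 5 of the 6 other markers, all but UNC5D, were higher where TRPM8 was higher. Members at 10 or more TRPM8 UMIs per 10000 (68 nuclei) were compared with those under 10 (93 nuclei) by the same rule of calling. This split was chosen after values had been seen, it divides a continuous range (36 members lay between 8 and 12 per 10000), and it defines no cell type. It also reads the TRPM8 counts that chose the members, so nuclei that barely met the rule lie on the low side. Differences between the sides describe the chosen nuclei and give no support to the choice. Of 6305 genes, 104 were called higher in the members with more TRPM8 (1.65%) and 395 lower (6.26%), with a median log2 ratio of -0.14. In that order of high and low members, the median depth was 5829 and 7177 UMIs, and 12 and 21 nuclei met another marker rule. In the same order, marker sums were 511 and 1030 CPM for satellite glia, 106 and 209 for fibroblasts, 19.2 and 36.8 for mural cells, 551 and 981 for peptidergic neurons, 538 and 859 for IL31RA and OSMR neurons, and 132 and 301 for KIT and BMPR1B, the A-fibre nociceptor markers. The median share of mitochondrial UMIs was 2.62% and 0.259%. These sums and medians were not weighted by library. Libraries 1, 3, 5 and 6 gave 19, 22, 14 and 12 of the high members and 19, 20, 24 and 26 of the low members. The median mitochondrial share of all members in these libraries was 4.23%, 21.7%, 0.0909% and 0.0562%. The part of these differences in the result was not tested.

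Several genes named above were higher where TRPM8 was higher. PLCD4 was at 335, 169, 651 and 475 CPM in the members with more TRPM8 of libraries 1, 3, 5 and 6, and at 94.4, 48.1, 115 and 96.8 CPM in the members with less. Its ratio of 4.43 (interval 3.51 to 5.59) was the largest of any gene with a symbol, and in each library the order was the same. COLQ was at 299.7 against 76.8 CPM (3.90-fold, interval 3.02 to 5.05), and HPSE2 at 1002 against 383 CPM (2.62-fold). RORA was at 4998 against 1978 CPM (2.53-fold, interval 2.38 to 2.68), PRKCB at 681 against 250.1 CPM (2.72-fold), and FOXP2 at 425 against 179 CPM. Summed over libraries, even the members with less TRPM8 stood above the other nuclei, where RORA was at 388, COLQ at 8.53 and PLCD4 at 44.6 CPM. This did not hold for every part of them. At 3 to 5 TRPM8 UMIs per 10000, RORA was at 839, 189, 1275 and 1304 CPM in libraries 1, 3, 5 and 6. The other nuclei held 296, 370, 378 and 467 CPM. In library 3 these were 4 members, and they had 0 COLQ UMIs. The 8 members of library 1 at 5 to 10 per 10000 had 0 COLQ UMIs too. The calcium channel genes CACNA1D (502 against 205 CPM) and CACNA1H (136 against 44.2 CPM), and HS6ST3, a heparan sulfate sulfotransferase (479 against 119 CPM, 4.04-fold, and 7.27-fold without library 3), were higher too. FOXP2 and CACNA1D were not called when nuclei were averaged with equal weight.

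Other genes were lower in the members with more TRPM8. CDH13 was at 108, 44.5, 82.5 and 269 CPM in the members with more TRPM8 of libraries 1, 3, 5 and 6, and at 433, 500.2, 571 and 636 CPM in those with less. The levels did not overlap between libraries, and overall CDH13 was 3.53-fold lower where TRPM8 was higher (interval 2.82 to 4.41). The members with more TRPM8 were near the other nuclei (153 and 98.3 CPM). KIT was at 90.6 against 219 CPM (2.41-fold lower, interval 1.78 to 3.27), with other nuclei at 74.0 CPM. The 2 sides stood at 10.8 and 244 CPM in library 1 and at 181 and 232 CPM in library 6, where the deepest member lies. With each nucleus of library 6 weighted equally, KIT was at 129 CPM in the members with more TRPM8, 327 CPM in those at 5 to 10 and 339 CPM in those at 3 to 5 per 10000.

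SCN10A was at 54.1, 17.8, 82.5 and 248 CPM in the members with more TRPM8 and at 157, 212, 522 and 835 CPM in those with less, which gave a ratio of 3.92 to lower (interval 3.09 to 4.98). SCN11A, the other tetrodotoxin-resistant sodium channel of nociceptors, was 2.96-fold lower, and PIEZO2 2.20-fold lower. CDH13 and these 3 genes, with KIT, kept the call without the deepest member, at 4.68-fold for CDH13, 3.12-fold for KIT, 3.45-fold for SCN10A, 2.21-fold for SCN11A and 2.72-fold for PIEZO2.

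The largest ratios to lower were SLC7A14 (27.5-fold on 1 UMI in the members with more TRPM8, interval 3.81 to 199), BTBD11 (12.2-fold, 10.5 against 127 CPM) and the leak channel KCNK10 (9.35-fold, 10.5 against 97.7 CPM). NYAP2 was at 40.1 against 339.9 CPM. FNDC1 had 0 UMIs in the members with more TRPM8 and was 8.47-fold lower there (interval 1.17 to 61.3) when a floor of 3 UMIs was put on that side. IL31RA was 15.1-fold lower, but 269 of its 296 UMIs among the members with less TRPM8 lay in the deepest member, and the call was lost without it (2.51-fold lower). Without library 6, KCNK10 (31.0-fold), SLC7A14 (14.1-fold) and FNDC1 were not called, and the last 2 were not called without library 5 either. SLC7A14 was 8.80-fold lower without library 3.

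**Figure D5:**
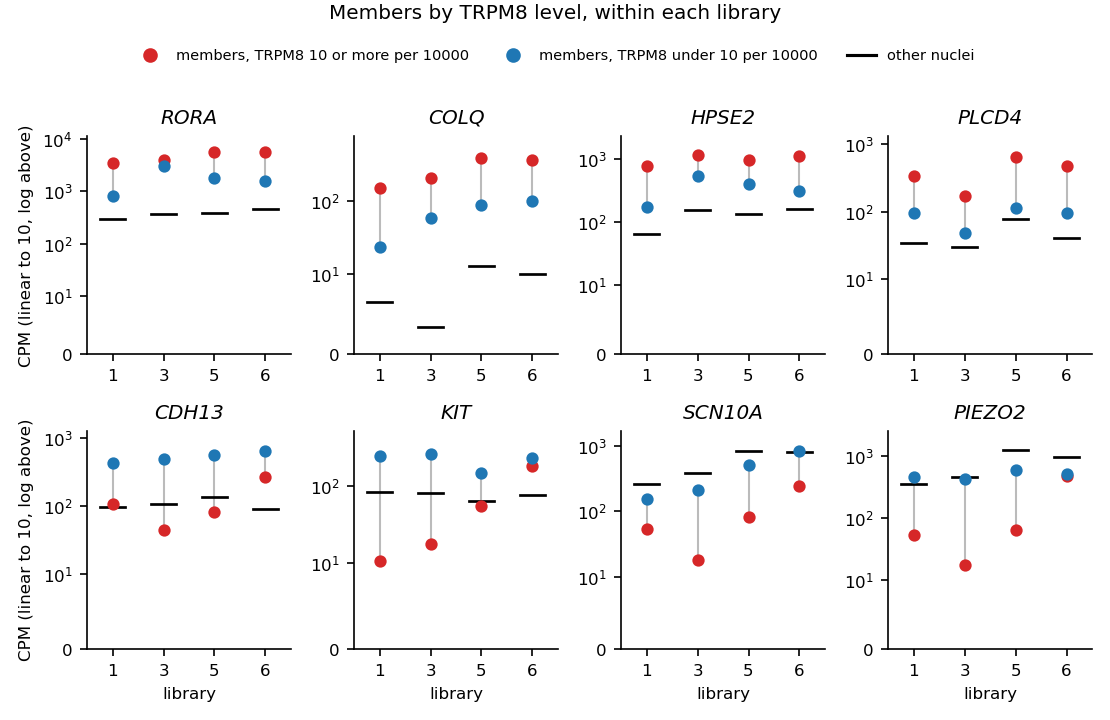
CPM (linear to 10, log above) of 8 genes in libraries 1, 3, 5 and 6, for members at 10 or more TRPM8 UMIs per 10000 (red), members under 10 (blue) and other nuclei (black line). RORA, COLQ, HPSE2 and PLCD4 were higher in the red than the blue points of each library, and CDH13, KIT, SCN10A and PIEZO2 were lower.

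The 2 sets of genes tended to lie in different nuclei. After thinning to 2000 UMIs, a CDH13 UMI was seen in 57 members, of which 26 (45.6%) also held a RORA UMI, against 96 of the 104 members without CDH13 (92.3%). By library, RORA was seen in 7 of 13, 2 of 8, 7 of 16 and 9 of 19 members with CDH13 in libraries 1, 3, 5 and 6, and in 21 of 25, 34 of 34, 19 of 22 and 18 of 19 members without it. HPSE2 was seen in 11 of the 57 members with CDH13 (19.3%) and 65 of the 104 without (62.5%). For KIT, of 29 members with a KIT UMI, 8 held RORA and 1 held HPSE2, against 114 and 75 of the 132 without KIT. SCHIP1 differed less, in 41 of the 57 members with CDH13 (71.9%) and 87 of the 104 without (83.7%). The pairs of genes were chosen after their values had been seen. In the split by TRPM8 of these same nuclei, CDH13 and KIT had been called lower and RORA and HPSE2 higher. Their detection in different nuclei follows in part from that choice and adds no separate evidence.

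Members were also divided by a thinned UMI of SCN10A, a division that involves the same genes and nuclei and adds no separate evidence. The 45 members with one held RORA at 1085, COLQ at 82.8 and HPSE2 at 236 CPM, and the 116 without held 3713, 181 and 772 CPM. SCN10A detection differed by library, in 8 of 38, 5 of 42, 15 of 38 and 17 of 38 members of libraries 1, 3, 5 and 6. Members divided by NEFH, the heavy neurofilament, differed less, with RORA at 2447 CPM in the 87 with a UMI and 2937 CPM in the 74 without. Members with TAC1 (68) held RORA at 1946 and those without (93) at 3211 CPM, but 30 of the 38 members of library 1 and 5 of the 38 of library 6 had a TAC1 UMI. A TRPV1 UMI was seen in 4 members, 3 of them in library 6.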

How the data were processed

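Single-nucleus RNA was sequenced from dorsal root ganglia of 5 pigs, 1 group. Values are raw UMI counts, not normalized, in 1 table as the authors deposited it (30477 genes, of which 6124 had no count, by 2189 nuclei). The submitters' processing notes list Cell Ranger 6.0.1, Seurat and the pig build Sscrofa11.1 but not what each was used for; filters before deposit are not given in the sources used here. Of 14012 Ensembl identifiers, 773 took a symbol from a gene-name table. CALCA, CALCB and MRGPRD were not analysed here, and a few genes that meet the naming rule are not reported here. The libraries shared 0 barcodes.

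Because no column was tied to a pig, edgeR was not run and the planned fallback without a test was used. UMIs were summed per group, the comparison group was weighted by library, and log2 ratios took a delta-method 95% interval; levels took Poisson and shares Clopper-Pearson intervals. Within-library ratios added 0.5 UMIs. The calculation was tested on simulated Poisson counts per library, which hold no variation between nuclei and so do not test its effect on calls or intervals. Members, markers and 13 gene lists were chosen with earlier results of these data known. Named genes were the markers, the 12 largest called ratios each way with a symbol, the 4 largest higher and 3 largest lower per list, and 5 each way per class comparison; cold and TRPM8-regulating genes of at least 20 member UMIs could be given by value. The split by TRPM8 level was added later, with 10 each way. Other genes given by name, such as SCN10A, CDH13, KIT and the rest of a list's called genes, were chosen after their values were seen. No doublet caller was run; members that met another marker rule were counted and left out as an alternative. Thinning drew 2000 UMIs per nucleus. Python 3.11.15, numpy 2.4.6, scipy 1.17.1 and pandas 2.3.3 were used.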

Additional observations from a re-analysis of the deposited data

How the results depend on the processing

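The members' share was 8.28% with nuclei of at least 1000 UMIs, 6.31% with at least 3 TRPM8 UMIs and 5 per 10000, 5.77% after thinning and 11.5% without library 3. Thinning left fewer genes to compare and 188 higher calls against the IL31RA class, 147 higher and 100 lower against the ADCYAP1 class, and 211 higher and 195 lower against the GFRA2 class. Lower calls against the IL31RA class numbered 424 by the mean over nuclei, 416 without library 6 and 376 without the deepest member. For members with more against less TRPM8, thinning gave 33 higher and 73 lower calls, and leaving out library 6 gave 48 and 196. Counts against all other nuclei stayed within 1.5 times under every alternative run, but the genes changed: 80 of the 219 higher and 58 of the 242 lower calls were shared after thinning, 161 and 144 without library 6, and 162 and 136 with at least 3 TRPM8 UMIs and 5 per 10000.

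The log2 ratio turned positive after thinning for PSPH (0.85), BEGAIN (0.016), C18orf63 (1.61), SLC6A7 (1.68), OVOL2 (1.28), HGD (0.90) and P2RY1 (0.23), and for PRDM8 it turned to -0.67. Without library 6 it was 0.15 for C18orf63, 0.052 for SLC6A7 and 0.068 for HGD. These genes had few member UMIs. Among other wide ranges across the alternatives run, the log2 ratio lay between -3.77 and -0.31 for KCNG4 and between -2.79 and -0.40 for MET. Of 128 ratios of named genes, 83 were not called after thinning, 37 without library 6, 27 without members of another marker rule and 11 without the deepest member. Depth limits genes below about 50 UMIs over both groups, and 6 libraries that no label ties to animals give no spread between pigs.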

Other observations

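Outside the naming rule, and chosen after their values were seen, several genes of broad function were called higher in the TRPM8 members than in the other nuclei. THRB, a thyroid hormone receptor, was at 313 against 73.5 CPM, a ratio of 4.26 (interval 3.83 to 4.73). PRLR, the prolactin receptor, was at 386 against 96.8 CPM (3.99-fold), SLC24A3, a sodium-calcium exchanger, at 329.9 against 82.9 CPM (3.98-fold), and SORCS3, a sorting receptor, at 134 against 34.5 CPM (3.89-fold). Among the genes called lower, FRMPD4 was at 59.5 against 239.8 CPM (4.03-fold), ADAM11 at 26.3 against 114 CPM (4.35-fold) and NOS1, the neuronal nitric oxide synthase, at 39.7 against 116 CPM (2.93-fold). One nucleus held 50.8% of the members' FRMPD4 UMIs and 68.8% of their NOS1 UMIs.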
